A study of Homo sapiens with 20 samples.

Results

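The genes described here are 10 transcripts that ERK signalling is known to induce, DUSP4, DUSP5, DUSP6, ETV4, ETV5, SPRY2, SPRY4, SPRED1, SPRED2 and PHLDA1, measured in MCF 10A cells that received a miRNA mimic or a control oligonucleotide. MCF 10A cells are breast epithelial cells of human origin, immortalized but not tumorigenic, and depend on epidermal growth factor in culture. The members were taken by name, with every probe annotated to them, and they were chosen partly on measured values, the falls of DUSP6 and ETV5 with miR-1. Those miR-1 values, and the miR-1 values of the other members, are therefore given as a description without a test. The rule did not use the miR-4728-3p comparison, which was tested, though earlier results of these data were known when members and tests were chosen. The 10 genes had 15 of 48803 probes in the miR-4728-3p experiment, which covered 18665 named genes, and 18 of 47323 probes in the miR-1 experiment, which covered 20046. All 10 had at least 1 probe bright enough to be tested in each experiment, counting 13 and 15 of their probes.

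In the first experiment, 6 cultures that received miR-4728-3p mimic were compared with 6 control cultures. In the second, 4 cultures with the miR-1 mimic were compared with 4 control cultures. All 20 arrays came from MCF 10A cells transfected by lipofection, and the controls of both experiments carry the label of a non-targeting siRNA, so that transfection itself is common to every group. The dose in the labels is 100 nM and no harvest time is given there, and the methods also list a lower dose and a control oligonucleotide of the same length as miR-4728-3p without saying which arrays had them. The methods call the cultures biological replicates. Each Illumina bead array gives 1 intensity per probe, written here as log2 intensity after background correction and quantile normalization within an experiment. The experiments used different array versions, so levels are compared only within an experiment and only for the same probe.

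In the ERK pathway, growth factor receptors activate RAS, which drives the kinases RAF, MEK and ERK in turn. Active ERK induces its own inhibitors. DUSP4, DUSP5 and DUSP6 are phosphatases that remove the activating phosphates from MAP kinases, Sprouty (SPRY) and SPRED proteins act upstream near RAS and RAF, and the amounts of these transcripts follow pathway activity. ETV4 and ETV5 are ETS-family transcription factors whose genes are held down by the repressor CIC until ERK signalling relieves it. A miRNA guides Argonaute to messages that pair with its seed, by convention bases 2 to 8, and usually lowers them.

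The sequences of both miRNAs are shown because the mimics are the treatments compared; they are from RefSeq (GRCh38.p14), 5′ to 3′, with the seed in capitals. On the third line the capitals mark bases 6 to 12 of miR-4728-3p, the internal seed named in the title of the study.
hsa-miR-1-3p: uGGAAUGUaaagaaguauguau
hsa-miR-4728-3p: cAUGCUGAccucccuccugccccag
hsa-miR-4728-3p, internal seed: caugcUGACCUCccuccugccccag
The word in a message that pairs with the seed of miR-1 is ACATTCC. The word for the internal seed of miR-4728-3p is GAGGTCA. The mature miR-1 shown lies at chr20:62554351-62554372 on the plus strand, in the MIR1-1 locus. Mature miR-4728-3p lies at chr17:39726537-39726561 on the plus strand, in MIR4728, a miRNA gene within an intron of HER2 (ERBB2). Messages of the members were not searched for these words, since no 3′ UTR sequence was used here.

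With the miR-4728-3p mimic, PHLDA1 and SPRED2 fell and no member passed as higher. The RNA is from whole cultures, so a smaller amount per cell and fewer cells with the transcript cannot be told apart. These 2 of 10 members passed the test as lower (limma, adjusted p under 0.05), against 3.8% of the 11820 genes tested; 0 members passed as higher, against 3.94%. At an unadjusted p under 0.05, 5 members were lower and 0 were higher. The share of all tested genes at that level was not counted, so nothing is read from these counts. The median log2 difference of the 10 members, mimic minus control, was -0.26, and that of all tested genes was -0.02. Log2 differences were below 0 for 6 members and above 0 for 4, compared with 56.1% of all tested genes below 0. Mimic and control arrays did not overlap for 1 member, SPRED2, which was lower; groups stood apart for 2.64% of tested genes as lower and for 2.94% as higher.

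PHLDA1, a small protein with a pleckstrin homology-like domain whose transcript ERK signalling induces, had the largest difference of the 10. Its log2 intensity in the control arrays was 9.89 at the lowest, 10.45 at the median and 10.59 at the highest. With the mimic these values were 9.51, 9.83 and 10.15. Of the controls, only replicate 5 lay within the range of the mimic arrays, and the other 5, from 10.24 upward, lay above all of them. The mean was 10.36 ± 0.26 in control cells and 9.84 ± 0.23 in mimic-treated cells (SD, n = 6 each), 0.700 of the control level (log2 difference -0.51, standard error 0.13, adjusted p = 0.0112 from limma). PHLDA1 passed the test in every alternative and with each array left out, with log2 differences of -0.61 to -0.45 in the latter.

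SPRED1 and SPRED2 bring the RAS inactivator neurofibromin to the cell membrane. SPRED2 ranged in the control from 8.20 to 8.72, with a median of 8.32, and with the mimic from 7.95 to 8.12, with a median of 7.98. The mimic arrays lay close together and below all controls, and the highest control was replicate 1. SPRED2 was 0.783 of the control level, with means of 8.01 ± 0.06 (SD, n = 6) and 8.36 ± 0.19 (SD, n = 6), a log2 difference of -0.35, a standard error of 0.10 and an adjusted p of 0.0344 from limma. This call was lost when any of 8 of the 12 arrays was left out (mimic replicates 1, 2, 5 and 6 and control replicates 1, 3, 5 and 6). Without control replicate 1 the log2 difference was -0.28 and the adjusted p was 0.0825 from limma. SPRED1 had a log2 difference of the same size, -0.35 (standard error 0.11, adjusted p = 0.0630 from limma), which did not pass. Its controls spanned 10.44 to 10.98 around a median of 10.58, and its mimic arrays 10.05 to 10.48 around 10.28, so the ranges met only at their edges. With the authors' own normalized values SPRED1 did pass (adjusted p = 0.0343 from limma), as it did in 3 other settings and without mimic replicate 3 or control replicate 5.

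**Figure D1:**
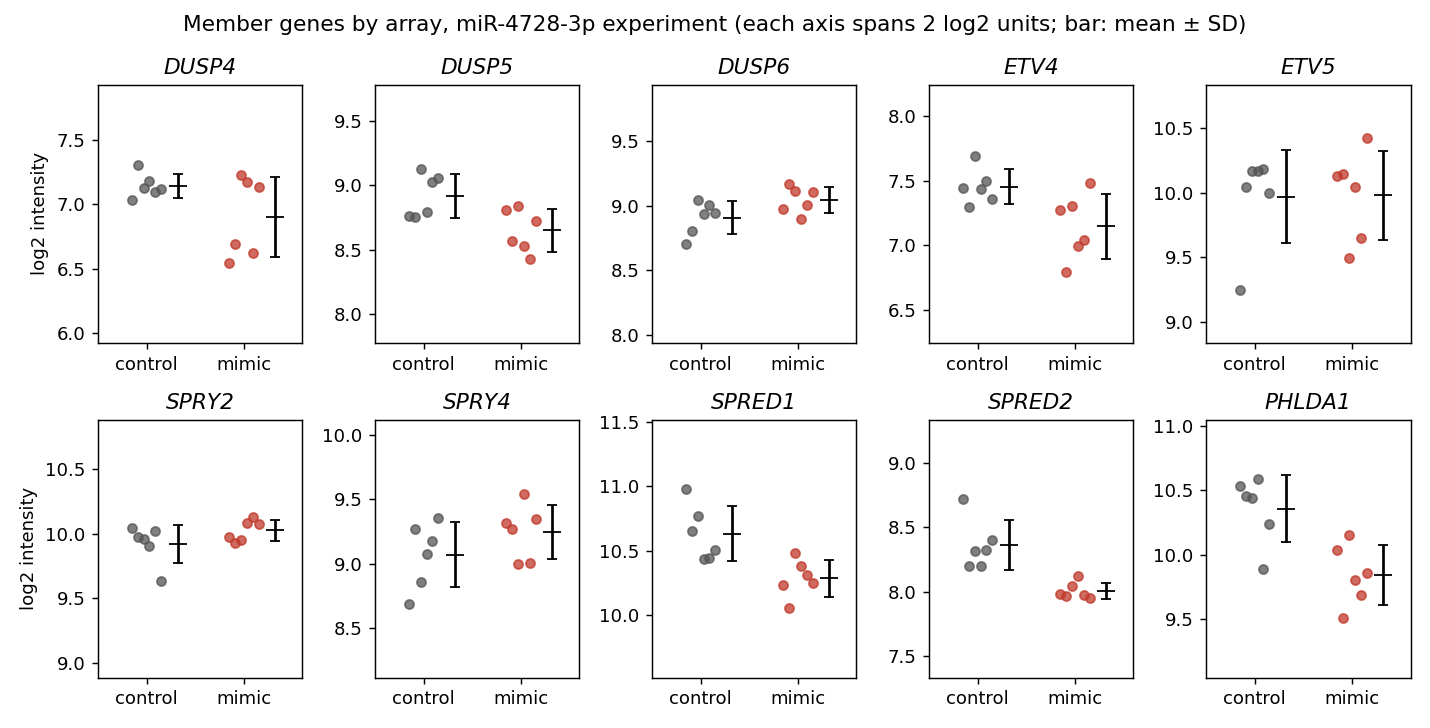
Log2 intensity of the 10 genes in every array of the miR-4728-3p and control set, with 6 control arrays in grey and 6 mimic arrays in red; each axis spans the same number of log2 units, and the bar beside each group is its mean ± SD. SPRED2 separates the groups without overlap, PHLDA1 apart from the control at 9.89, and in ETV5 a single control at 9.25 lies away from the other 5.

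The phosphatases did not move as a group with miR-4728-3p. DUSP6, a cytoplasmic phosphatase specific for ERK, lay between 8.70 and 9.04 in the control (median 8.94) and between 8.90 and 9.17 with the mimic (median 9.05). The log2 difference was 0.14 with a 95% confidence interval of -0.06 to 0.33 (adjusted p = 0.544 from limma), and the second DUSP6 probe gave -0.02. The groups of DUSP6 overlapped, from 8.90 to 9.04. DUSP5, a nuclear phosphatase that also acts on ERK, lay between 8.75 and 9.12 in the control (median 8.91) and between 8.43 and 8.84 with the mimic (median 8.64). Its log2 difference was -0.27, with an interval of -0.48 to -0.05 before adjustment and an adjusted p of 0.168 from limma. DUSP4, which acts on ERK and other MAP kinases in the nucleus, split the mimic arrays. Replicates 1, 2 and 5 were at 6.55, 6.69 and 6.62, under every control, and replicates 3, 4 and 6 were at 7.23, 7.17 and 7.14, inside the control range of 7.04 to 7.31. Its log2 difference of -0.24 (standard error 0.12) had an adjusted p of 0.327 from limma.

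Both ETV genes also failed to pass with miR-4728-3p. ETV4 had a median of 7.44 in the control (7.30 to 7.69) and 7.16 with the mimic (6.79 to 7.48). The log2 difference was -0.31 with a standard error of 0.11 (adjusted p = 0.135 from limma), and its second probe gave -0.24. ETV5 had the widest spread of the members, with standard deviations of 0.36 in the control and 0.34 with the mimic. Its controls lay between 10.00 and 10.18 apart from replicate 1 at 9.25. The mimic arrays lay between 10.05 and 10.42 apart from replicates 3 and 5, at 9.50 and 9.65. The log2 difference was 0.01 with a 95% confidence interval of -0.31 to 0.34, and leaving out arrays in turn moved it between -0.13 and 0.11. These arrays do not tell 0 from a change of a size within the confidence interval. SPRY2 and SPRY4, the Sprouty inhibitors of receptor signalling, had log2 differences of 0.10 and 0.18 (adjusted p = 0.683 and 0.546 from limma). SPRY2 had medians of 9.97 in the control and 10.03 with the mimic. For SPRY4 these were 9.13 and 9.29, with control arrays from 8.69 to 9.35 and mimic arrays from 9.00 to 9.54.

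In the same arrays of the miR-4728-3p experiment, the 10 genes of the interferon response list were all higher with the mimic, with a median log2 difference of 5.65. Averaged per array, they lay at log2 intensities of 7.05 to 7.97 in the control and 12.66 to 13.46 with the mimic, and their part in the values of PHLDA1, SPRED2 and the other members was not tested. In the miR-1 experiment 0 of 8 tested genes of that list passed (limma; 0 at an unadjusted p under 0.05), with array means from 6.51 to 6.62 in the control and from 6.52 to 6.68 in mimic-treated cells. The labelled cell type was checked through markers. Epithelial markers (7 of 9 had a probe) averaged 11.38 to 11.56 per control array of the miR-4728-3p experiment. Per control array of the miR-1 experiment they averaged 9.91 to 9.96, and there KRT14 and CDH1 were higher with the mimic. The averages are not compared between the experiments, since the array versions differed and a different probe stood for KRT18 in each. Of the 7 fibroblast markers with a probe, 2 and 1 were bright enough to be tested, as were 2 and 2 of the 7 blood and endothelial markers, and none of them passed in either experiment (limma; 1 at an unadjusted p under 0.05). In the control arrays of the miR-4728-3p experiment the brightest of these were CD14, at a mean log2 intensity of 10.22, and DCN, at 9.27.

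With the miR-1 mimic, DUSP6 and ETV5 were lower, as the choice of members fixes, and the other members are read beside them. Log2 differences were below 0 for 9 of 10 members and above 0 for DUSP5, where 51.8% of all tested genes were below 0. The 9 include DUSP6 and ETV5, whose falls were known at the choice, so nothing is read from this count. Of the 18 probes 17 were below 0, but some genes had several probes, and these are not separate members. The median log2 difference of the members was -0.16, and that of all tested genes was -0.01. By the same limma fit 2 of 10 members, DUSP6 and ETV5, lay past the threshold as lower, and none as higher, where 1.24% of the 11899 tested genes were lower and 1.45% higher, and nothing is read from this share because the contrast was used in the choice. Arrays of the groups did not overlap for 3 members that were lower, DUSP6, ETV4 and ETV5, and for 1 that was higher, DUSP5, where 5.73% and 5.02% of tested genes did so.

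DUSP6 was the member with the largest fall. The probe that stands for the gene (ILMN_2396020) read 10.04, 9.89, 10.16 and 10.10 in control replicates 1 to 4. In mimic replicates 1 to 4 it read 9.18, 9.55, 9.60 and 9.78. All mimic arrays lay below all controls, with replicate 1 farthest away, and the mean of 9.53 ± 0.25 (SD, n = 4) was 0.698 of the control mean of 10.05 ± 0.12 (SD, n = 4), a log2 difference of -0.52 with a standard error of 0.11. Before normalization the intensities of this probe were 864 to 1310 in the control and 670 to 905 with the mimic, and those ranges overlapped. The second probe (ILMN_1677466), annotated to another transcript of the gene, read 6.85, 6.66, 7.09 and 6.85 in the control and 6.41, 6.50, 6.43 and 6.39 with the mimic. It too had no overlap and gave a log2 difference of -0.43. This probe was dim, with a mean log2 intensity of 6.65 where the filter for dim probes was 6.17. Before normalization its intensities were 122 to 185 in the control and 121 to 135 with the mimic, and these ranges overlapped as well.

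ETV5 read 9.27, 9.04, 9.55 and 9.36 in the controls and 8.76, 8.97, 8.94 and 8.78 with miR-1. The mimic arrays lay below every control, by a narrow margin at control replicate 2. The mean was 0.736 of the control (8.86 ± 0.11 against 9.31 ± 0.21, SD, n = 4 each), a log2 difference of -0.44 with a standard error of 0.10. Before normalization the intensities overlapped, at 528 to 860 in the control and 467 to 616 with the mimic. The second ETV5 probe gave -0.22 with overlapping groups, at 7.11, 6.94, 6.88 and 6.82 in the control and 6.64, 6.64, 6.70 and 6.87 with the mimic. ETV4 read 6.90, 7.09, 6.90 and 7.09 in the controls and 6.84, 6.68, 6.83 and 6.52 with the mimic. Its groups stood apart by less than the spread within them, the log2 difference was -0.28 (standard error 0.09), and the second ETV4 probe gave -0.20. ETV4 (mean 6.86) and the second ETV5 probe (mean 6.83) lay near the filter for dim probes, which was 6.17 in this experiment.

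**Figure D2:**
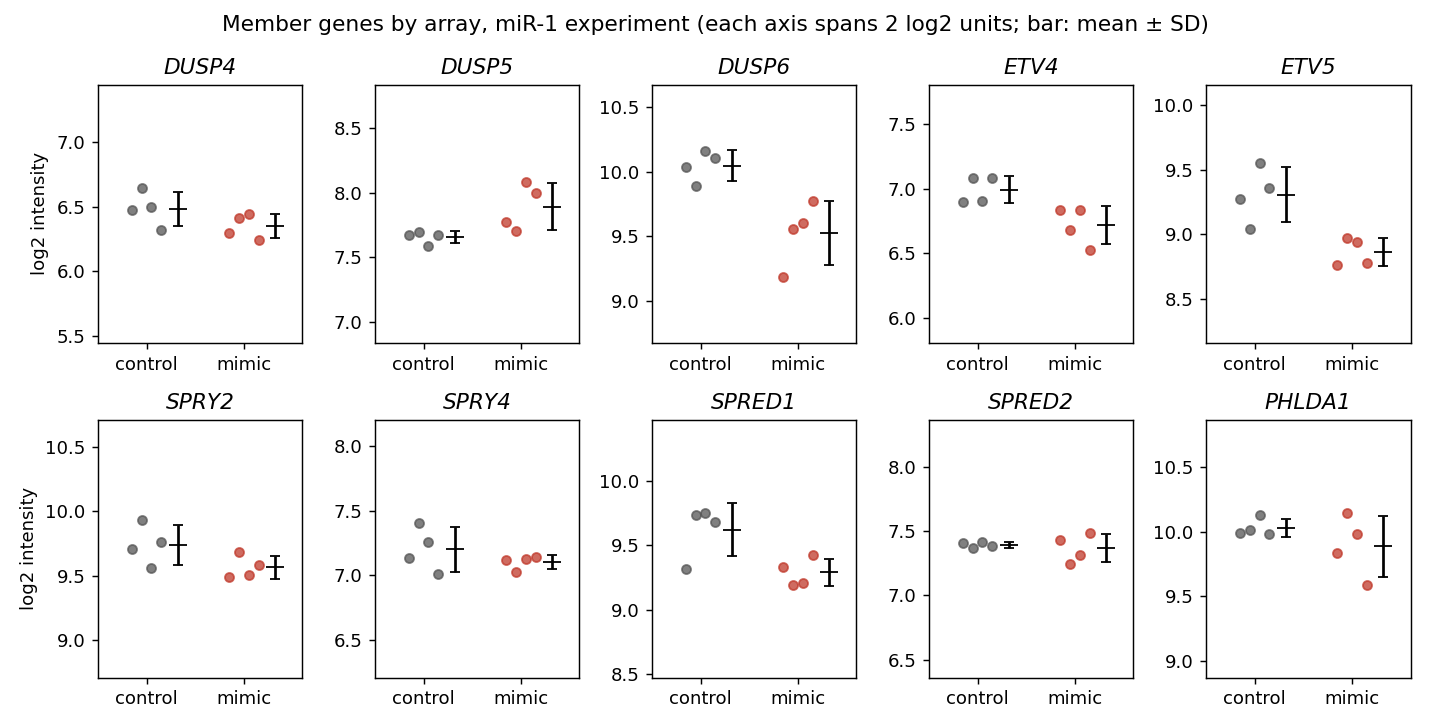
Log2 intensity of the 10 genes in each array of the miR-1 experiment, with 4 control arrays in grey and 4 mimic arrays in red; each axis spans the same number of log2 units and the bars give the mean ± SD. DUSP6 (-0.52) and ETV5 (-0.44), whose falls were known at the choice, lie lowest with the mimic relative to the control, and DUSP5 (0.23) lies higher.

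DUSP5 went the other way from DUSP6 with miR-1, at 7.68, 7.70, 7.59 and 7.67 in the controls and 7.77, 7.71, 8.09 and 8.00 with the mimic. The log2 difference was 0.23 (standard error 0.09), carried by mimic replicates 3 and 4, while mimic replicate 2 all but touched the highest control. DUSP4 read 6.47, 6.64, 6.50 and 6.32 in the controls and 6.30, 6.42, 6.44 and 6.25 with the mimic, overlapping ranges with a log2 difference of -0.13. SPRED1 read 9.31, 9.73, 9.75 and 9.68 in the controls and 9.33, 9.19, 9.21 and 9.42 with the mimic. Control replicate 1 sat among the mimic arrays, the other controls lay above them, and the log2 difference was -0.33 (standard error 0.10). SPRED2, by contrast, read 7.40, 7.37, 7.41 and 7.38 in the controls and 7.43, 7.24, 7.31 and 7.48 with the mimic, a log2 difference of -0.02.

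The Sprouty genes and PHLDA1 had small differences with miR-1. SPRY2 read 9.71, 9.93, 9.56 and 9.76 in the controls and 9.49, 9.68, 9.50 and 9.59 with the mimic, a log2 difference of -0.18 with overlap. For SPRY4 the log2 difference was -0.10 by its brightest probe and -0.09 to -0.06 by the other 3, of which 2 were too dim to be tested. PHLDA1, which fell with miR-4728-3p, read 9.99, 10.01, 10.13 and 9.98 in the controls and 9.84, 10.15, 9.98 and 9.59 with miR-1. The log2 difference was -0.14 (standard error 0.11) and the mimic arrays lay on both sides of the controls. A second PHLDA1 probe that only this array version had gave -0.20, with 7.28, 7.31, 7.39 and 7.41 in the controls and 7.01, 7.24, 7.28 and 7.05 with the mimic. Its groups did not overlap, with 7.279 in the highest mimic array and 7.285 in the lowest control.

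**Figure D3:**
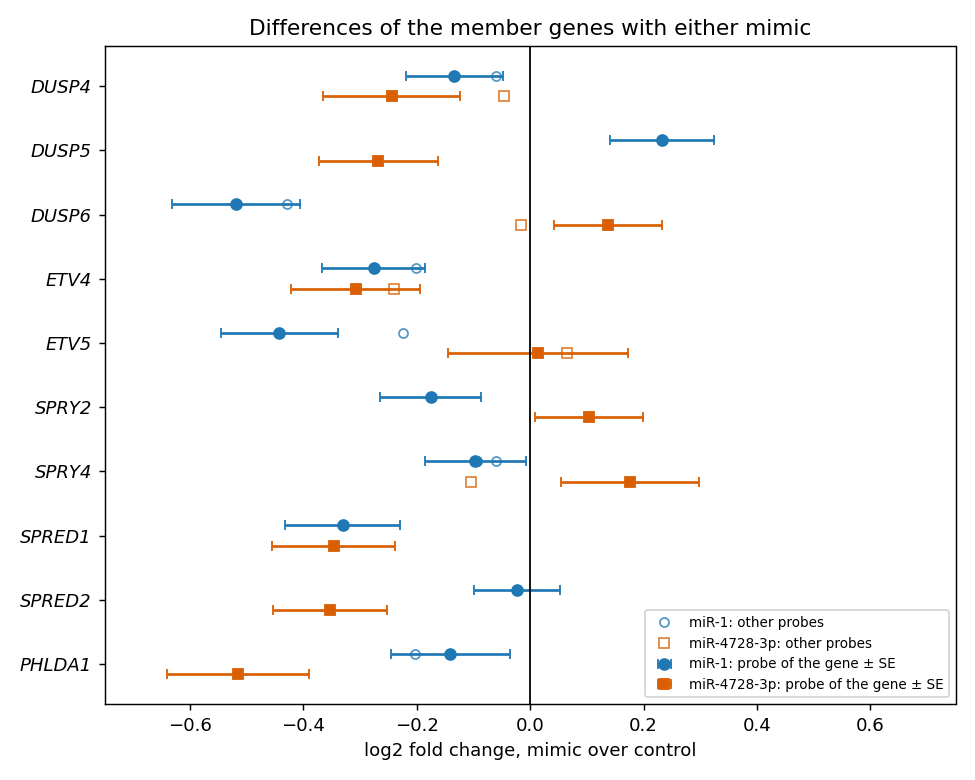
Log2 difference, mimic minus control, of each gene with miR-1 (blue circles) and miR-4728-3p (orange squares); filled symbols are the probe that stands for the gene with its standard error, and open symbols are the other probes. SPRED1 lies at -0.33 and -0.35 in the respective experiments, while DUSP6 lies at -0.52 with miR-1 and 0.14 with miR-4728-3p; differences between the experiments were not tested.

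Set side by side, the mimics gave log2 differences of -0.52 (miR-1) and 0.14 (miR-4728-3p) for DUSP6 and of -0.44 and 0.01 for ETV5. For DUSP5 they were 0.23 and -0.27. ETV4 had -0.28 and -0.31, and SPRED1 had -0.33 and -0.35. PHLDA1 had -0.14 and -0.51. The experiments shared no arrays, but they were run on different array versions with controls of their own, and no test of the difference between them was made.

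Correlations between members over all 20 arrays were at most moderate, and some of them were smaller without 1 library. Within a single experiment some were larger and others smaller. SPRED2 and PHLDA1 had -0.87 over the miR-1 arrays, and ETV5 and SPRED1 had -0.72 over the miR-4728-3p arrays. Over the 20 arrays, after the mean of each group was subtracted, the deviations of DUSP6 and ETV5 had a Pearson correlation of 0.42, which was 0.25 without control replicate 1 of the miR-4728-3p experiment, an omission chosen after the values were seen, and 0.49 over the 8 arrays of the miR-1 experiment alone. In that array ETV5 was at its lowest (9.25) while SPRED1 (10.98) and SPRED2 (8.72) were at their highest. The correlation of ETV5 with SPRED2 was -0.64 with that array and -0.26 without it, and that of SPRED1 with SPRED2 was 0.59 and 0.32. The pair DUSP5 and ETV4 had 0.50 with that array and 0.51 without it, and DUSP5 and DUSP6 had 0.47 and 0.41. Deviations of all members in that array had a root mean square of 0.322, against 0.132 to 0.247 in the other 11 arrays of the experiment; over all tested genes it was 0.224, within the range of 0.161 to 0.233. Genes read from the same arrays share every difference in RNA input and hybridization, so these correlations describe the arrays only.

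Likeness to other genes was measured the same way among 10367 genes tested in both experiments. The genes with deviations most like those of DUSP6 were HYCC1, ZNF577, PPTC7, INIP and AOC4P, with correlations of 0.77, 0.74, 0.71, 0.70 and 0.68 over 20 arrays. For ETV5 they were HAX1, CENPE, PFDN5, GARS1 and SRSF8, with 0.90, 0.89, 0.89, 0.88 and 0.87. Without control replicate 1 of the miR-4728-3p experiment these 5 correlations with ETV5 were 0.83, 0.80, 0.81, 0.79 and 0.76. Over the 8 arrays of the miR-1 experiment alone they were 0.58, 0.90, 0.75, 0.94 and 0.34. None of the genes named here as most like DUSP6 or ETV5 is a member or on the ERK pathway list. Probes of the same gene did not always follow each other better than this. The deviations of the paired probes correlated at 0.24 for DUSP6, 0.42 for ETV4 and 0.35 for ETV5 over the 12 arrays of the miR-4728-3p experiment. Over the 8 arrays of the miR-1 experiment the values were 0.36 for DUSP6, -0.16 for ETV4, -0.35 for ETV5, 0.35 for SPRY4 and 0.70 for PHLDA1.

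The wider pathway was read from a list of 77 other genes, sorted by role. In the miR-4728-3p experiment 58 of them were tested, and 2 fell, 3 rose and 53 did not pass. The share that passed was 8.62%, where 7.74% of all tested genes passed in either direction. The median log2 difference of the list was -0.04. In the miR-1 experiment 61 were tested, and 1 fell, 3 rose and 57 did not pass, a share of 6.56% beside 2.69% of all tested genes, with a median of 0.02. The list was chosen with earlier results of these data known, so nothing is read from either share. Of the growth factor receptors 0 of 6 passed with miR-4728-3p and 0 of 5 with miR-1, and of the adaptors and kinases of the cascade from GRB2 to RSK 0 of 11 passed in each (limma). At an unadjusted p under 0.05 there were 1 receptor and 1 cascade gene lower with miR-4728-3p, and 1 receptor lower, 1 receptor higher and 2 cascade genes higher with miR-1. For this level too, the share of all tested genes was not counted.

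Among the other negative regulators, DUSP3 was the 1 of 15 tested that changed with miR-4728-3p. DUSP3 is a small phosphatase of ERK and JNK. It lay between 9.92 and 10.19 in the control (median 10.02) and between 9.26 and 9.52 with the mimic (median 9.42), with no overlap. It fell to 0.641 of the control level (log2 difference -0.64, standard error 0.09, adjusted p = 3.51e-05 from limma). With miR-1, 2 of 16 tested negative regulators passed, both higher. PEA15, which holds ERK in the cytoplasm, rose by 0.38 (adjusted p = 0.0379), and DUSP14, a MAP kinase phosphatase, rose by 0.32 (adjusted p = 0.0478 from limma). The PEA15 call was lost on leaving out any of 6 of the 8 arrays (mimic and control replicates 1, 3 and 4), and the DUSP14 call on leaving out any array but mimic replicate 2.

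ETS factors other than ETV4 and ETV5 were tested with their repressor CIC, and 3 of 13 passed with miR-4728-3p. ETS2, a factor that ERK activates by phosphorylation, rose from a control median of 8.76 (8.52 to 8.90) to 9.57 (9.13 to 9.90), 1.80 times the control mean (log2 difference 0.84, standard error 0.12, adjusted p = 1.7e-05 from limma). ELF1, an ETS factor of another subfamily, rose by 0.56 (adjusted p = 0.000296). ETS1, the close relative of ETS2, went the other way and fell to 0.739 of the control mean, from 9.85 ± 0.12 to 9.41 ± 0.10 (SD, n = 6; log2 difference -0.44, adjusted p = 0.00382 from limma). With miR-1, 0 of the 13 passed (limma; before adjustment, 1 was lower and 2 were higher at a p under 0.05). CIC had log2 differences of 0.03 with miR-4728-3p and -0.16 with miR-1.

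Among other ERK-responsive transcripts, 1 of 13 passed with miR-4728-3p. PLAUR, the urokinase receptor, rose from 8.13 ± 0.16 to 9.40 ± 0.21 (SD, n = 6), 2.41 times the control (log2 difference 1.27, standard error 0.11, adjusted p = 1.08e-08 from limma), with control arrays from 7.94 to 8.40 and mimic arrays from 9.18 to 9.78. The interferon genes given above moved in the same arrays. With miR-1, 2 of 16 passed. FOS, an immediate early subunit of AP-1, fell to 0.708 of the control, from 7.94 ± 0.06 to 7.44 ± 0.15 (SD, n = 4; log2 difference -0.50, standard error 0.09, adjusted p = 0.00718 from limma). PHLDA2, a relative of PHLDA1, rose from 8.12 to 8.63, 1.42 times the control (log2 difference 0.51, adjusted p = 0.00532 from limma), while PHLDA1 itself had -0.14. The FOS and PHLDA2 calls held with each array left out, as did those of DUSP3, ETS1, ETS2, ELF1 and PLAUR. With the replicate number as a block most pathway calls of the miR-1 experiment were lost, that of FOS among them (adjusted p = 0.0545 from limma). With an offset of 16 or with array weights the calls of PEA15 and DUSP14 were lost.

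**Figure D4:**
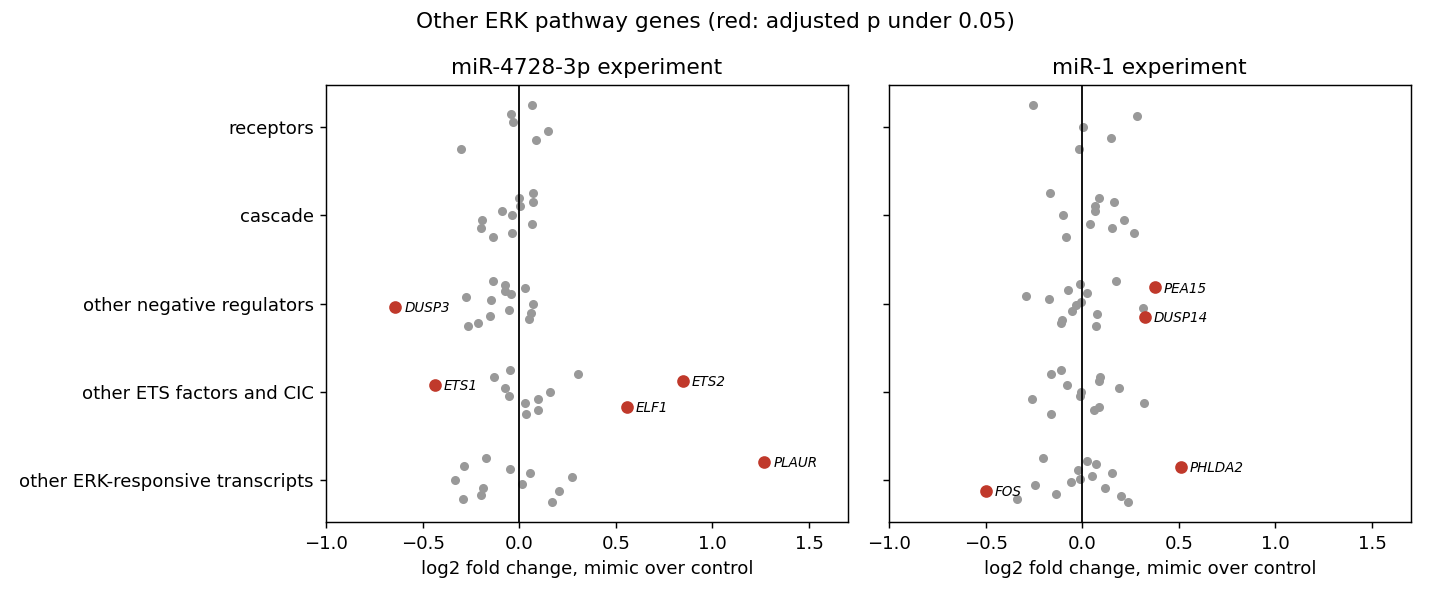
Log2 difference, mimic minus control, of the tested genes on the ERK pathway list, by role, with miR-4728-3p on the left and miR-1 on the right; red points have an adjusted p under 0.05 from limma. Most points lie near 0 in both experiments, receptors and cascade genes hold no red point, and PLAUR at 1.27 lies farthest out.

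ETS factors such as ETV4 and ETV5 bind DNA at a GGAA core, so the promoters of the members were read for the 6-letter word CCGGAA, on either strand (TTCCGG in reverse). RefSeq promoters, from 250 bases before to 50 after a gene start in GRCh38.p14, were at hand for 9 starts of 6 members. The word was in 2 of these 9, and in 17.2% of all 35116 promoters of that length. Both stretches are shown because 1 belongs to PHLDA1, the member with the largest fall with miR-4728-3p, and the other to SPRY2, which did not pass; capitals mark the word.
PHLDA1, chr12:76031848-76031877, minus strand: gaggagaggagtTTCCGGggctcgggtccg
SPRY2, chr13:80341251-80341280, minus strand: tccctgcctcctCCGGAAaggcgagggcgc
The word begins 89 bases before the start of PHLDA1 and 142 bases before that start of SPRY2. No word was found in the promoters of DUSP6, SPRED1, SPRED2 and SPRY4. A match of letters does not show that a factor binds there.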

How the data were processed

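The authors deposited, for each experiment, signal intensity per probe before normalization and intensity values normalized on the BASE server, on a linear scale; the method of that normalization, the image software and the build are not given in the sources used here. RNA was labelled by the standard Illumina protocol. The labels name HumanHT-12 v3.0 arrays throughout and the methods v4.0 for the miR-1 experiment. Median intensities before normalization were 101 to 135 and 92 to 121 per array. The number of arrays limits the precision.

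From the deposited intensity values before normalization, log2 values were computed with limma 3.58.1 in R 4.3.3 (normexp, offset 50, then quantile normalization within an experiment). The 20919 and 22031 probes whose mean exceeded the median over all values entered lmFit and eBayes with no replicate block, with Benjamini-Hochberg adjustment at 0.05. Each gene took its brightest tested probe. Probes had 1 gene name (27578 and 30113), several (13 and 8, left unnamed) or none. Mimic and control arrays of the same replicate number showed no pairing in their deviations (correlations of -0.23 to 0.07). Such correlations cannot show whether same-numbered cultures were handled together. Between mimic and control arrays of different numbers the correlations were -0.25 to 0.28. The highest was that of mimic replicate 3 with control replicate 1 of the miR-4728-3p experiment, so some arrays shared deviations across the groups. The source of these shared deviations was not tested. The step was tested on simulated data.

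The members, the pathway and marker lists and the tests were chosen with earlier results of these data known. The named genes are all 10 members, up to 4 genes with the smallest p per role of the pathway list among those with an adjusted p under 0.05, and the 5 genes most like DUSP6 and ETV5; markers are named by level, apart from KRT14 and CDH1, which fall outside this rule and were named after their values were seen. Alternatives tried were an offset of 16, no background correction (1 added before the log), the authors' normalized values, no filter or 1 at the 75th percentile, array weights, the replicate block, the trend and robust options of eBayes, the probe with the smallest p, and leaving out each array. Figures were drawn with matplotlib 3.10.9 in Python 3.11.15, with tables read by pandas 2.3.3.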

Additional observations from a re-analysis of the deposited data

Results flagged for a closer look

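Of 40 groups of arrays examined for the 10 genes, 3 held an array far from the others by Dixon's test, and chance alone marks about 1 group in 20. ETV5 had a log2 intensity of 9.25 in control replicate 1 of the miR-4728-3p experiment, where the other 5 controls lay at 10.00 to 10.18. SPRED1 had 9.31 in control replicate 1 of the miR-1 experiment, where the other 3 lay at 9.68 to 9.75. SPRY2 had 9.64 in control replicate 6 of the miR-4728-3p experiment, where the other 5 lay at 9.91 to 10.04.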

How the results depend on the processing

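No result changed direction past a threshold in any alternative. With miR-4728-3p, 2 members passed, and 1 passed without the filter on dim probes or with the replicate block; leaving out each array gave 1 to 3. SPRED2 lost its call in both of these settings (adjusted p = 0.0707 and 0.0731 from limma). With miR-1, 2 members lay past the threshold, DUSP6 and ETV5, whose falls were known at the choice. This count is therefore a description and not a test. It was 0 with an offset of 16 or with the replicate block, 1 with array weights, and 0 to 2 on leaving out each array. Log2 differences on leaving out each array were -0.60 to -0.41 for DUSP6 and -0.53 to -0.36 for ETV5. Of the other pathway genes 4 passed with miR-1, 2 with an offset of 16 or with array weights, and 1 with the replicate block, where FOS had an adjusted p of 0.0545 from limma; leaving out each array gave 2 to 4. The 5 pathway genes of the miR-4728-3p experiment became 5 to 7 on leaving out each array. The replicate block, whose numbers showed no pairing in the deviations, changed no other count by over 1.5 times. Of the tested single-gene values under an alternative, 347 kept their side of the threshold, 30 lost a call and 6 gained one. The 170 such values of the members with miR-1, which are described and not tested, moved by less than the spread between replicates. Leaving out 1 array or changing only the filter could hardly move a value that far, so little is read from this. Probes near background understate differences, and the cause of each change was not tested.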
